A study of Homo sapiens with 2 samples.

Results

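DDIT4, GRB10, TXNIP and 7 other genes that restrain mTORC1, or through which it is restrained, were followed in SW480, a long-established cell line from a human colorectal adenocarcinoma. The 10 genes were DDIT4, DDIT4L, SESN1, SESN2, SESN3, GRB10, TSC1, TSC2, RHEB and TXNIP, taken by their symbol in the platform's probe annotation. They had 11 of the 33297 probe sets on the array, RHEB having a pair and the others 1 each. The set was chosen by the log2 differences of these same arrays, in which DDIT4 and GRB10 were already known to be among the largest, so that their differences are given as a description and support nothing further. A gene counted as measured when the higher of its 2 values reached 5.55 on the log2 scale, the median over all probe sets of the 2 arrays. By that rule 9 of the 10 genes and 11548 of the 18417 genes named on the array were measured, and DDIT4L was not.

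The study set stable SW480 transfectants that carried the TFAP2E coding sequence (AP-2 epsilon, a DNA-binding transcription factor of the AP-2 family) in the pTarget mammalian expression vector against SW480 cells that carried the vector alone. Both kinds of cells had been kept under Geneticin, the drug that selects for the vector, for some weeks before clones were picked and RNA was taken. Each group is 1 Affymetrix array of biotin-labelled target, and the labels do not say how many clones it holds. A difference between clones and an effect of TFAP2E therefore cannot be told apart, no value has a replicate, and the differences come without any test or error. Every difference below is the log2 RMA value on the TFAP2E array minus that on the empty vector array.

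mTORC1 is the kinase complex that drives protein synthesis and cell growth when nutrients, growth factors and energy are sufficient. It is switched on at the lysosome by the small GTPase RHEB, and the TSC1-TSC2 complex holds RHEB in its inactive form. DDIT4 (also called REDD1) is induced by hypoxia, energy shortage, glucocorticoids and the ATF4 stress response, and releases TSC2 from inhibition by AKT. The sestrins act on the amino acid branch, where they hold back GATOR2, and GRB10 is an adaptor that damps the insulin and IGF1 receptors and is itself stabilised by mTORC1. TXNIP, an alpha-arrestin that binds thioredoxin and limits glucose uptake, is induced by high glucose through the MondoA and ChREBP factors and has been reported to stabilise DDIT4.

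Promoter sequences show what the 3 genes with the largest differences have at their starts. RefSeq promoter windows of build GRCh38.p14, from 250 bases before to 50 after a transcription start, were found for 10 of the 10 genes, 18 windows in all. The first listed window of DDIT4 (chr10:72273674-72273973, plus strand) is shown with the letters ACGTG and GCGTG, the cores of the hypoxia response element, in capitals. GRB10 is shown by its first and its second listed window (chr7:50793404-50793703 and chr7:50792825-50793124, both minus strand). The AP-2 letters GCCNNNGGC are in capitals there, since TFAP2E is an AP-2 factor. Of the 5 listed windows of GRB10 only these hold such letters. TXNIP is shown by its first window (chr1:145996530-145996829, minus strand), with the carbohydrate response element in capitals, searched as the letters CACGNG on both sides of a spacer of 5 bases. All are written 5′ to 3′ on the gene's own strand.
DDIT4: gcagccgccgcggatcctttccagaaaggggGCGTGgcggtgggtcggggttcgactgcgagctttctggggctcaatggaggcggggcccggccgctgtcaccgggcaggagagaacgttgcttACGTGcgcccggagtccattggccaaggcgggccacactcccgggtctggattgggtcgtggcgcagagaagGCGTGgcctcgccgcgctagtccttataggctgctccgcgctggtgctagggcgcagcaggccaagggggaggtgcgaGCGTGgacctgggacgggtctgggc
GRB10, the first window: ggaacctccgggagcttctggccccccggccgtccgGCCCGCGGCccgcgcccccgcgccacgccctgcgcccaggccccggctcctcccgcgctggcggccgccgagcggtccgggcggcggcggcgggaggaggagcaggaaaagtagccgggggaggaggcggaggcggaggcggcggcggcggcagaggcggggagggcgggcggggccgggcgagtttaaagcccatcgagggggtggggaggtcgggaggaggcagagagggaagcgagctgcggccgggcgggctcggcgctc
GRB10, the second window: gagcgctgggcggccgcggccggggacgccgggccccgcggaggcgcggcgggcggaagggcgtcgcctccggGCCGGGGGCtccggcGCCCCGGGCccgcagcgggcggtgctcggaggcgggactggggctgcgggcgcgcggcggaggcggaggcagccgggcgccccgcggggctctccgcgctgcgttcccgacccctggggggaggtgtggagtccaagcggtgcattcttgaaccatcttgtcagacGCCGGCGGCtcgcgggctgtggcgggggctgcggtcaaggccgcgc
TXNIP: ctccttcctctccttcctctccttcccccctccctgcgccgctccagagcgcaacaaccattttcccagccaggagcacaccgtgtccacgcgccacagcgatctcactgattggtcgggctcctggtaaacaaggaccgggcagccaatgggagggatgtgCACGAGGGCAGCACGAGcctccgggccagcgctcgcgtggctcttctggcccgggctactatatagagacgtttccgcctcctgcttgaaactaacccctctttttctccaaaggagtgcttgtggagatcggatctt

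DDIT4 encodes the stress-induced inhibitor that acts upstream of TSC2. It read 8.96 on the TFAP2E array against 7.98 with empty vector, a log2 difference of 0.98 and a 1.98-fold higher value. The level was thus well above the filter value on both arrays, and the difference stopped just short of 2-fold, which it just passed (1.01) when each array was centred on its median. Ranked from the highest difference, DDIT4 was number 11 of the 11548 measured genes. Over all of these genes 95% of differences lay between -0.37 and 0.47, with a median of 0.04 and a standard deviation of 0.219. Among the 2254 other genes whose mean level lay within 0.5 of that of DDIT4, 13 (0.577%) were at least 1.5-fold higher. In bulk RNA of this kind, a different share of cells with a transcript and a different amount per cell cannot be told apart.

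GRB10, the receptor adaptor, read 7.69 on the TFAP2E array and 6.76 on the empty vector array. Its log2 difference of 0.93 was 1.91-fold and stood directly after DDIT4, at number 12. Of 3176 other genes at like level 29 (0.913%) were at least 1.5-fold higher. TXNIP, the alpha-arrestin, read 8.80 on the TFAP2E array and 8.17 on the empty vector array, 1.54-fold higher (log2 difference 0.63, number 76). It passed 1.5-fold narrowly: its difference was 0.58, just under the rule, after quantile normalization or removal of the loess trend.

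**Figure D1:**
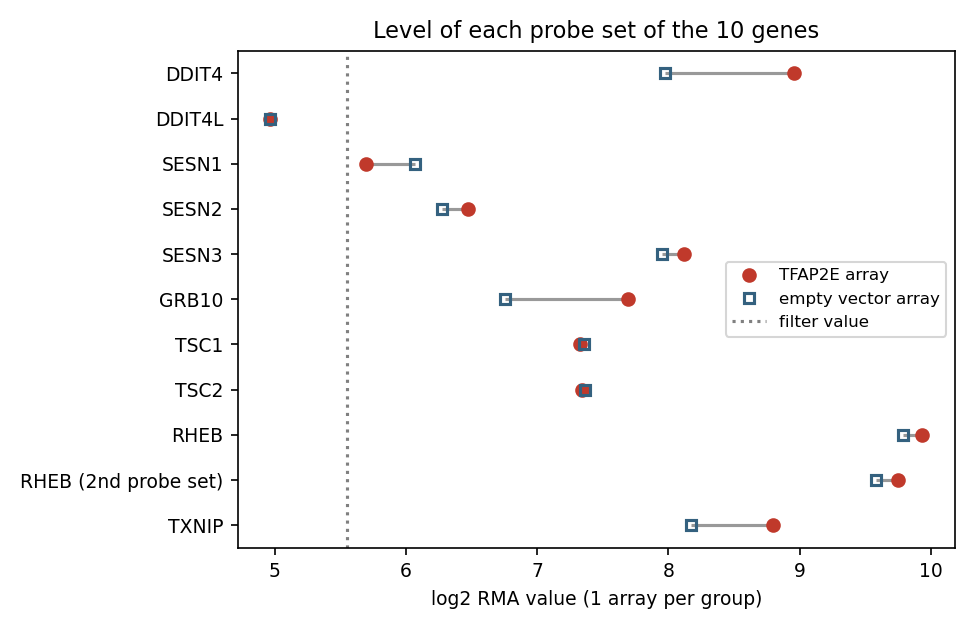
Log2 RMA value of each of the 11 probe sets of the 10 genes, 1 array per group, with red dots for the TFAP2E array, open blue squares for the empty vector array and a dotted line at the filter value of 5.55. DDIT4, GRB10 and TXNIP show the widest gaps, SESN1 is lower on the TFAP2E array, TSC1 and TSC2 nearly coincide, and DDIT4L lies below the filter value.

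The sestrins, which are induced by stress-responsive factors such as FOXO proteins or ATF4 and restrain mTORC1 through GATOR2, had differences of both signs. SESN2, the sestrin best known as a leucine sensor and an ATF4 target, read 6.48 on the TFAP2E array and 6.27 with empty vector, a log2 difference of 0.20. SESN3, a FOXO target, read 8.11 against 7.95 with empty vector, a difference of 0.16. SESN1 read 5.70 on the TFAP2E array and 6.07 on the empty vector array, 1.29-fold lower (-0.37). That is the lowest difference of the 9 measured genes, and it lay just inside the lower edge of the range that held 95% of all genes. SESN2 and SESN3 lay well inside that range. With no replicate, the signs of the sestrins are a description only. On both arrays SESN1 was close to the filter value.

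DDIT4L, the paralog of DDIT4, read 4.97 on both arrays, below the filter value, and its difference was 0. Equal values on both arrays occurred in 1379 probe sets, of which 1173 lay below the filter value, so that this 0 is no measurement of stability. The large difference of DDIT4 thus has no readable counterpart in its paralog.

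The TSC complex, on which DDIT4 acts, and its GTPase RHEB differed little between the arrays. TSC1, the scaffold subunit of the complex, read 7.33 on the TFAP2E array and 7.35 on the empty vector array (difference -0.03). TSC2, its GTPase-activating subunit, read 7.34 against 7.36 on the empty vector array (-0.02), and turned to 0.00 when each array was centred on its median. The GTPase RHEB read 9.93 on the TFAP2E array and 9.79 with empty vector, a difference of 0.14. Its other probe set read 9.75 against 9.58 with empty vector, a difference of 0.17, and lists nearly the same RHEB transcripts, so that the pair is not independent. These 3 genes all lay inside the middle 95% of differences.

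Taken by the 1.5-fold rule of size, 3 of the 9 measured genes were higher on the TFAP2E array and 0 were lower. Over all measured genes 0.892% were higher by this rule and 0.606% lower, 1.5% in either direction. Since DDIT4 and GRB10 were chosen for their size, nothing is read from that count. Among the other 7 measured genes TXNIP alone passed, 4 lay above 0 and 3 below. At 2-fold none of the 9 passed without centring, beside 0.0866% of all genes higher and 0.113% lower. With centring DDIT4 passed, and the share of all genes with centring is not given. With the rule loosened to 0.32 on the log2 scale, 3 were higher and 1, SESN1, lower, beside 7.9% and 3.8% of all genes. The median difference was 0.16 for the 9 genes and 0.14 without DDIT4 and GRB10, against 0.04 for all measured genes.

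**Figure D2:**
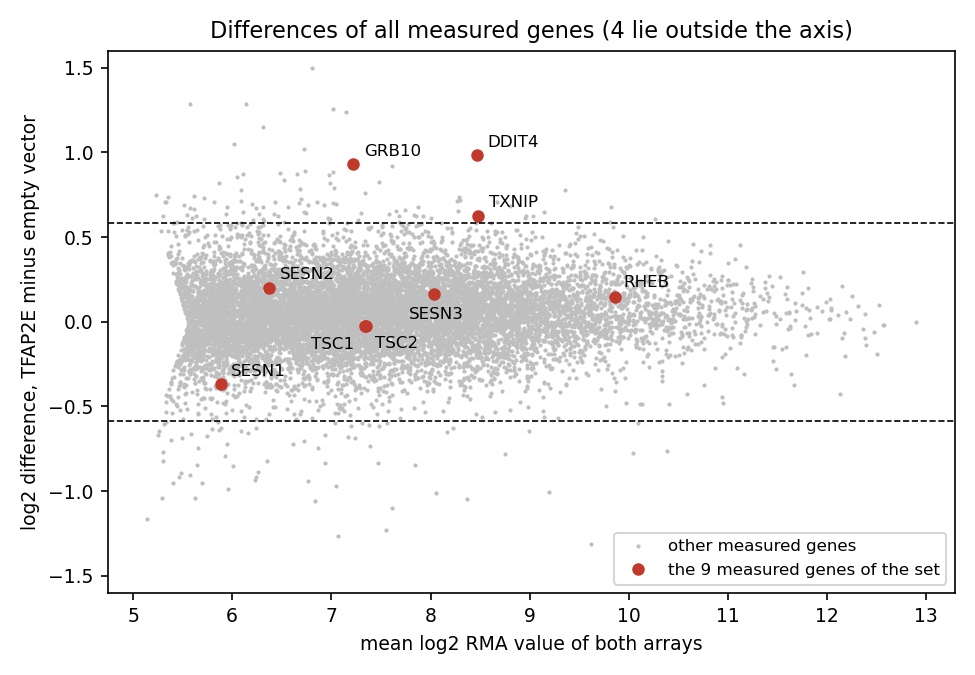
Log2 difference, TFAP2E minus empty vector, against the mean log2 RMA value of both arrays for 11548 measured genes (grey), with the 9 measured genes of the set in red and dashed lines at 1.5-fold; 4 genes lie beyond the plotted range of 1.6 in size. DDIT4, GRB10 and TXNIP lie above the upper line, and the other 6 genes lie within the bulk or, for SESN1, near its lower edge.

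With 2 arrays, any genes that differ are perfectly correlated, so that likeness of pattern can be given only as likeness of size. The genes next above DDIT4 were SPTSSB, a small subunit of serine palmitoyltransferase (1.02), the small nucleolar RNA SNORA22 (1.05) and the U5 spliceosomal RNA RNU5D-1 (1.15). Next below GRB10 came CMSS1 (0.92), SLC7A7, the light chain of a cationic amino acid exchanger (0.89), and EPS8L3, a relative of the receptor substrate EPS8 (0.88). SNORA22 lay below the filter value on the empty vector array, at 5.50, against 6.54 on the TFAP2E array.

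The genes beside GRB10 on the chromosome were mostly higher as well. Of the 20 measured genes nearest to it in RefSeq gene order, 10 on each side, 18 were above 0, with a median difference of 0.26 and a range of -0.40 to 0.87. Of 11072 such windows across the genome 1.32% had a median as high. With no filter on dim genes the median around GRB10 was 0.10. The nearest measured gene on one side, DDC-AS1, was lower (-0.40), and that on the other, COBL, an actin nucleator, was higher (0.32). Further examples, chosen after their values were seen, were the uridine phosphorylase UPP1 (0.87), the AAA-type ATPase FIGNL1 (0.59) and the receptor EGFR (0.52). GRB10, likewise chosen for the size of its difference, exceeded each of the 20 and stood 0.67 above their median. With 20 genes on each side the median was 0.24, and 1 of the 40, SNORA22 (1.05), was higher than GRB10. The part of this regional shift in the GRB10 value was not tested.

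DDIT4, chosen for the size of its difference, lay above all of its neighbours, which is a description only. Their median was 0.08, with values from -0.20 to 0.46, and DDIT4 lay 0.90 above it. For TXNIP the median of the neighbours was 0.18, a value reached by 5.66% of windows. It was 0.09 with 20 genes on each side and 0.07 with the filter at the 75th percentile. In the window of 10 genes on each side 1 of the 20 neighbours, PIAS3 at 0.69 (named after its value was seen), was higher than TXNIP itself. TXNIP lay 0.44 above that median, and the part of its neighbours' shift in its value was not tested. Around TSC1 the median was -0.10, and 98.3% of windows had a median at least as high, while TSC1 itself lay 0.08 above its neighbours. SESN1 was lower than each of its 20 neighbours, whose median was 0.06. The window medians of the other genes were 0.04 for SESN2, 0.01 for SESN3, 0.11 for TSC2 and -0.03 for RHEB.

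**Figure D3:**
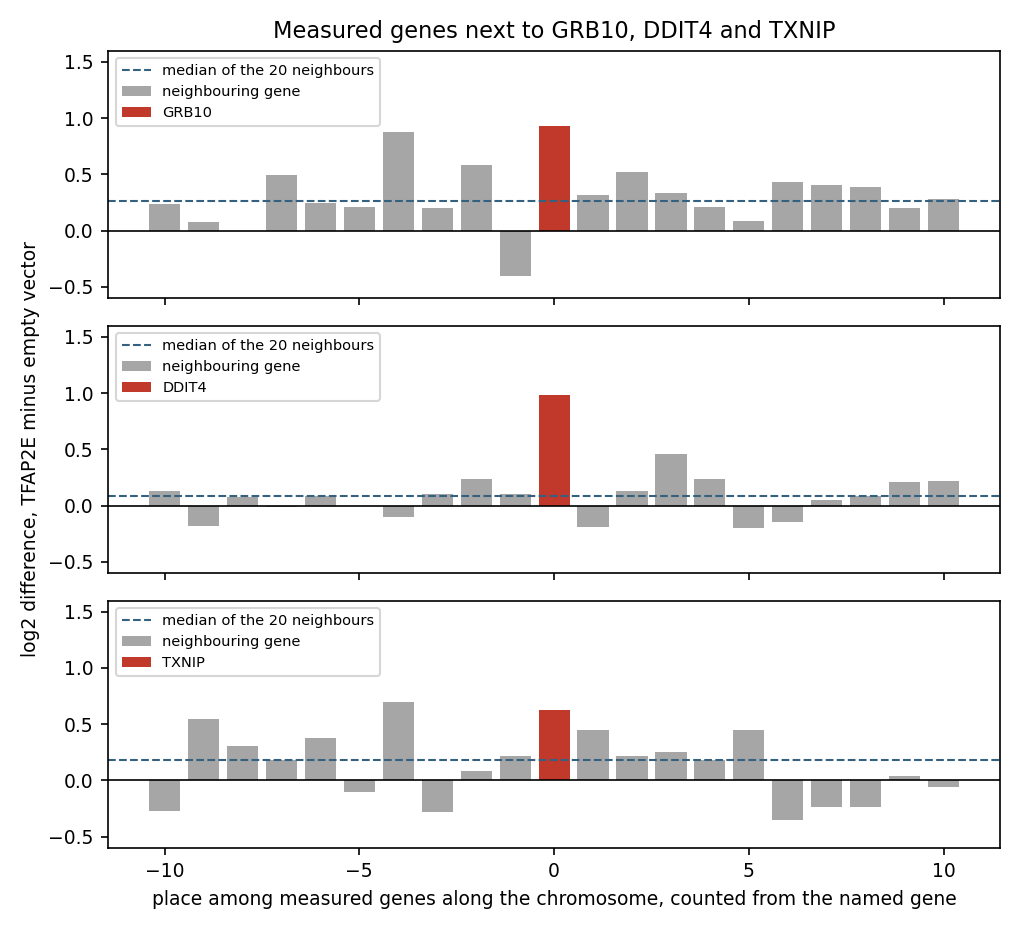
Log2 difference, TFAP2E minus empty vector, of GRB10, DDIT4 and TXNIP (red) and of the 10 measured genes on each side of them in gene order (grey), with a dashed line at the median of the 20 neighbours. Most neighbours of GRB10 lie above 0, around a median of 0.26, whereas those of DDIT4 lie around 0.08.

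The promoter letters printed above were counted in each window. DDIT4 held GCGTG at 3 places and ACGTG at 1, starting 219, 125 and 53 bases before the start site and 25 bases after it. Either core was also present in windows of other genes of the set, in 8 of the 18 windows and 6 of the 10 genes with DDIT4 included. On both strands either core was found in 48.4% of 35116 windows, and 4 or more matches in 4.40% of them. Over the first windows of the 9283 measured genes that had one, these shares were 63.6% and 7.22%. GRB10 has 5 listed windows, of which the first held 1 AP-2 match, 214 bases before the start. The second, which is 81.7% G and C, held 3, and windows 3, 4 and 5 held 0. Matches to GCCNNNGGC were present in 23.2% of all windows and 3 or more in 1.20%. Over the first windows of measured genes these shares were 34.0% and 2.08%, which are no measure for the second window of GRB10. DDIT4 and TXNIP held none, and of the other genes SESN1 and TSC1 had 1 match each. The TXNIP match to the carbohydrate response letters starts 88 bases before the start site, and such a match was found in 20 of the 35116 windows (0.0570%) and in 16 of the 9283 first windows of measured genes (0.172%). Searches for CACGTG (7.26% of windows), TGATGNAA (3.62%) and TGTTTAC (3.42%), the letters of an E-box, of the ATF4 composite element and of a FOXO site, matched once each, in TSC2 for the first and second and in TXNIP for the third. Over the first windows of measured genes the shares were 10.4% for the E-box, 1.56% for the ATF4 composite element and 2.08% for the FOXO site. CACGTG contains ACGTG. These matches are letters in a window and no evidence of binding.

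The other genes of the pathway were read from lists by role, chosen with earlier results of these arrays known. Together the lists held 145 measured genes, of which 5 were at least 1.5-fold higher on the TFAP2E array and 0 lower, beside 0.892% and 0.606% of all measured genes. With each array centred on its median 7 of 146 measured genes were higher, SEC13 and the cystine transporter SLC7A11 (0.59, named after its value was seen) joining them. The shares over all measured genes are those without centring, and the shares with it are not given. The median of the lists' genes was 0.08. Of the 145, 66.9% lay above 0, against 59.2% of all measured genes. The counts for single lists below are to be read beside that 59.2% and the 1.5-fold shares above.

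Subunits and assembly factors of the mTOR complexes were near level. Of 9 measured genes 6 were above 0, beside 59.2% of all measured genes, and none passed 1.5-fold (median 0.07). PRR5L, an mTORC2-associated protein (0.16), and the shared subunit MLST8 (0.16) were highest, and MAPKAP1, the SIN1 subunit of mTORC2 (-0.22), and the kinase MTOR itself (-0.12) lowest. DEPTOR, the inhibitory subunit, and RHEBL1, a RHEB paralog, were named after their values were seen. DEPTOR was dim at 5.38 on the TFAP2E array and 5.42 on the empty vector array. RHEBL1 was likewise dim, at 5.38 on the TFAP2E array and 5.11 on the empty vector array.

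Amino acid sensing genes lay mostly above 0, beside 59.2% of all measured genes (median 0.04). In the restraining branch, which holds GATOR1, KICSTOR and the arginine sensor, 6 of 6 measured genes were above 0 with a median of 0.16, from CASTOR1 (0.05) and the GATOR1 subunit DEPDC5 (0.08) to the KICSTOR subunits ITFG2 (0.20) and KICS2 (0.25). In the activating branch of GATOR2, Rag GTPases, Ragulator and folliculin, 13 of 17 were above 0 with the same median of 0.16. The GATOR2 subunit MIOS read 8.65 on the TFAP2E array and 7.93 on the empty vector array, 1.65-fold higher (0.72), past the rule. SEC13, which serves in GATOR2, the nuclear pore and the COPII coat, stopped just short at 0.58 and passed at 0.61 with centring on the median. The folliculin partner FNIP2 (-0.11) and the GTPase RRAGC (-0.04) were lowest.

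AMPK, the energy sensor that activates TSC2, and its activator LKB1 gave 10 of 12 measured genes above 0 (median 0.10). Over all measured genes 59.2% lay above 0. STRADB, a pseudokinase partner of LKB1, read 8.65 on the TFAP2E array and 7.92 on the empty vector array, 1.67-fold higher (0.74). The gamma subunit PRKAG2 followed at 0.52, and it is the nearest measured gene on one side of RHEB. The beta subunit PRKAB2, the nearest measured gene on one side of TXNIP and named after its value was seen, differed by 0.45. The catalytic subunit PRKAA2 (-0.07) and the scaffold CAB39 (-0.02) were lowest, and CAB39 turned to 0.01 with centring on the median.

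Growth factor signalling above AKT, where GRB10 acts, lay lower than most lists. Of 17 measured genes 5 were above 0 and 12 below, with a median of -0.05 and none past 1.5-fold. The insulin receptor INSR, a partner of GRB10, differed by 0.21 and the adaptor GRB2 by 0.19. The receptor substrate IRS1 (-0.44) and the AKT phosphatase PHLPP2 (-0.36) were lowest. IRS1 read 5.81 on the TFAP2E array and 6.25 on the empty vector array. Among paralogs and partners of GRB10, GRB7 differed by -0.11, the GYF proteins GIGYF2 and GIGYF1 by 0.03 and 0.25, and the ubiquitin ligase NEDD4 by 0.13. GIGYF2 lay below 0 after quantile normalization and after removal of the loess trend. GRB14, a paralog named after its values were seen, was dim, at 3.22 on the TFAP2E array and 3.46 on the empty vector array. GRB7 was thus the only paralog of GRB10 that could be read.

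Effectors downstream of mTORC1 were level as a list. Of 18 measured genes 9 lay above and 9 below 0, with a median of 0.01 that turned to -0.03 after quantile normalization or removal of the loess trend. The translation inhibitor PDCD4 (0.25) and the S6 kinase RPS6KB1 (0.25) were highest, and the translation repressor EIF4EBP2 (-0.31) and the autophagy kinase ULK2 (-0.31) lowest. mTORC1 acts on most of these through phosphorylation, which the arrays do not measure.

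TXNIP lay above every measured gene of the list drawn up around its role. In the list of other alpha-arrestins, thioredoxins and glucose-sensing factors 8 of 12 measured genes were above 0, none passed 1.5-fold, and the median was 0.04. Over all measured genes 59.2% lay above 0, with a median of 0.04. The thioredoxin reductase TXNRD1 (0.41) and the mitochondrial thioredoxin TXN2 (0.38) were highest, and the arrestin ARRDC1 (-0.08) and the glucose transporter SLC2A1 (-0.07) lowest. ARRDC4, another target of the MondoA factor that was named after its value was seen, differed by -0.03. It was close to the filter value of 5.55, at 5.58 on the TFAP2E array and 5.61 on the empty vector array, and so could hardly be read.

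**Figure D4:**
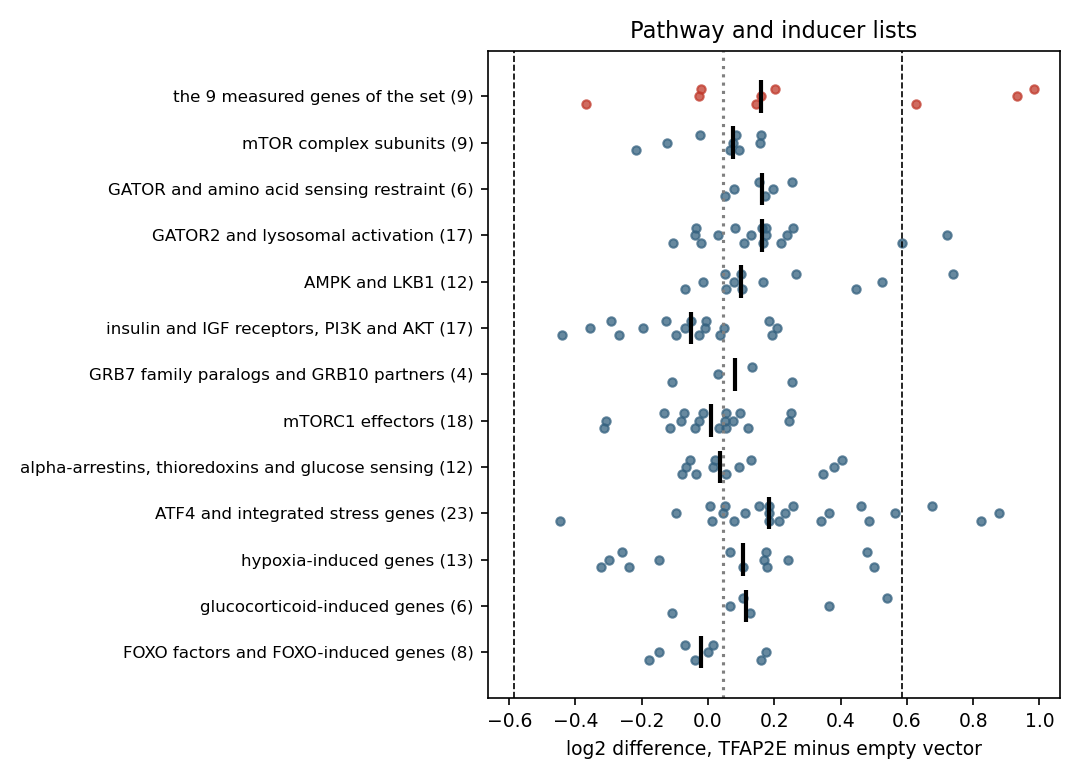
Log2 difference, TFAP2E minus empty vector, of each measured gene in the set (red) and in 12 lists (blue), with the number of genes in brackets, a black bar at each list's median, dashed lines at 1.5-fold and a dotted line at the median of all measured genes, 0.04. The ATF4 list holds 3 of the 5 list genes past 1.5-fold, and the insulin, PI3K and AKT list has its median below 0.

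Known inducers of DDIT4, the sestrins and TXNIP were read the same way, leaving the 10 genes out. The ATF4 and integrated stress list, which induces DDIT4 and SESN2, had 21 of 23 measured genes above 0, with a median of 0.19. Over all measured genes 59.2% lay above 0. Of the list's genes above 0, ATF5, EIF2AK2 and EIF2AK4, named after their values were seen, fell below 0 after removal of the loess trend. EIF2AK4 also did so after quantile normalization. Past 1.5-fold were CTH, which makes cysteine (0.88), the transcription factor DDIT3 (0.82) and asparagine synthetase ASNS (0.68), beside 0.892% of all measured genes. With centring, where 24 genes of the list were measured, SLC7A11 passed as well, and the share of all genes with centring is not given. CTH read 6.92 on the TFAP2E array and 6.05 on the empty vector array, DDIT3 read 7.89 against 7.07 on the empty vector array, and ASNS read 10.2 against 9.48 on the empty vector array. The amino acid transporter SLC7A5 (-0.45) and its heavy chain SLC3A2 (-0.10) were lowest. This list's upward shift had been seen in these arrays before, with DDIT4 among its leaders, and is no independent evidence.

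The hypoxia list gave 8 of 13 above 0 (median 0.10), beside 59.2% of all measured genes. Besides induced genes it held the hypoxia factors HIF1A (-0.24) and EPAS1 (-0.15), both below 0 and named after their values were seen. ADM, a vasodilator peptide (0.50), and VEGFA (0.48) were highest, and the prolyl hydroxylase EGLN3 (-0.32) and the glycolytic regulator PFKFB3 (-0.30) lowest. The glucocorticoid list held induced genes and the receptor NR3C1. It gave 5 of 6 above 0 (median 0.12, or 0.32 with the filter at the 75th percentile, which leaves 2 of them). There the EGFR inhibitor ERRFI1 (0.54) and the clock gene PER1 (0.37) were highest, and the receptor NR3C1 (-0.11) and TSC22D3 (0.07), a classical target, lowest. FOXO factors and their targets gave 3 of 8 above 0 (median -0.02, turning to 0.00 with centring), with CCNG2 (0.17) and SOD2 (0.16) highest and FOXO4 (-0.18) and CITED2 (-0.15) lowest. None of these 3 lists had a gene past 1.5-fold.

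The identity of the cells and the label of the first array were read from other genes. TFAP2E itself read 6.81 on the TFAP2E array and 6.77 on the empty vector array. Its difference of 0.04 does not show the introduced coding sequence, and the sources used here do not say where on the transcript its probes lie, so all directions rest on the labels. Of 10 epithelial and colon markers 9 were measured, with the epithelial adhesion molecule EPCAM, named after its values were seen, at 11.1 on the TFAP2E array and 11.2 on the empty vector array. CDH1, or E-cadherin (-0.71), and VIL1, or villin (1.28), were past 1.5-fold, and the other 7 were not. VIL1 read 6.22 on the TFAP2E array and was dim on the empty vector array, at 4.94. Levels of the 10 markers spanned 4.26 to 12.6 on the TFAP2E array and 4.29 to 12.6 on the empty vector array. The lowest was KRT20, which was dim and is named after its values were seen. All 5 endothelial markers were dim, as were 5 of 7 fibroblast markers and 3 of the 5 leukocyte markers on the array, with the leukocyte antigen PTPRC, also named after its values were seen, at 2.74 on both arrays. The levels of these lists on the TFAP2E and empty vector arrays spanned 3.68 to 4.66 and 3.63 to 4.41 for endothelium, 2.47 to 6.45 and 2.52 to 6.40 for fibroblasts, and 2.74 to 6.60 and 2.74 to 6.02 for leukocytes.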

How the data were processed

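Per the submitters' processing notes, the authors used RMA, and the deposited table holds its log2 values, 1 per probe set and array. Neither the RMA version nor a genome build is given in the sources used here. RMA gives both arrays nearly 1 distribution (medians 5.54 on the TFAP2E array and 5.56 on the empty vector array), so that a change of all transcripts together would not appear.

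The platform annotation gave 19460 probe sets exactly 1 symbol, 1754 several and 12083 none. Symbols were updated by Entrez identifier in RefSeq (GRCh38.p14), which held 19429 of the 19460. For a gene with several probe sets the one with the highest mean stood for it. Genes whose higher value was below 5.55 (6869 of them) were set aside as dim. Fold rules of 1.5 and 2 are descriptions of size, and the number of arrays limits the precision. Python 3.11.15, pandas 2.3.3 and statsmodels 0.14.6 were used. The 1.5-fold rule was run on simulated differences with known folds. That checked the code alone and gives no error rate for these arrays.

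The 10 genes, the lists and the rules were chosen with earlier results of these data known. A further list of inducers is not reported here. Named were the 10 genes, the 2 highest and 2 lowest measured genes of each list and any past 1.5-fold, the 3 genes on each side of DDIT4 and GRB10 by difference, the nearest neighbours where a window's median passed 0.2, and TFAP2E; others are marked as chosen after their values were seen. Alternatives covered scaling, filters, probe sets, a floor, the fold rule and the window.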

Additional observations from a re-analysis of the deposited data

How the results depend on the processing

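Of 1480 values recomputed under the alternatives, 1476 moved by less than 0.219, the standard deviation over all genes, or for counts stayed within 1.5 times, and no gene past 1.5-fold changed sign. Across the alternatives DDIT4 lay between 0.93 and 1.01, GRB10 between 0.90 and 0.96 and TXNIP between 0.58 and 0.65. The count of genes past the rule, 3 higher and 0 lower, was 2 higher with quantile normalization or without the loess trend, where TXNIP dropped just under it, 0 higher at 2-fold (DDIT4 passes 2-fold with centring, a combination of choices not counted here), and 1 lower with the rule loosened to 0.32 on the log2 scale, where SESN1 entered. The median of the measured genes of the set, 0.16, became 0.63 with the filter at the 75th percentile, which leaves fewer of them. The window median of GRB10 ranged from 0.10 with no filter on dim genes to 0.33 with the filter at the 75th percentile. Around TXNIP it ranged from 0.07 to 0.21. The median of all genes was 0.01 to 0.07. Signs of values near 0 changed in 38 values and in the count at 2-fold, 39 in all. No paired analysis was possible because there is only 1 array per group. With no replicate, the error of any difference is unknown.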
